A study of Mus musculus and Homo sapiens with 43 samples.

Results

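Embryoid bodies (EB) of cells labelled Pcgf2 knock-out (KO) were compared with those of wild-type (WT) cells on day 8 of differentiation, across all 15244 of the 35245 listed genes that reached 1 TPM in at least 2 of the 4 libraries. TPM is the share of a gene in the transcripts of a library, corrected for transcript length and scaled to a fixed total. Each group held 2 libraries. All cells came from E14, a mouse embryonic stem cell (ESC) line. The Pcgf2 KO line was made with CRISPR/Cas9, and the WT line carries no edit in the labels. EB are aggregates that differentiate without instruction, and both groups were grown in serum medium without LIF and without the kinase inhibitors PD0325901 and CHIR99021, which hold ESC in the naive state. No retinoic acid was named for EB day 8. Both genotypes were also in the same table at the ESC stage, on EB day 3 and as neural progenitor cells (NPC, grown with retinoic acid), 16 libraries in all, and these set the spread of each gene. The labels do not say whether the 2 libraries of a group came from separate cultures or from separate clones, so p-values measure the spread between these libraries, which may be technical.

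Pcgf2 (also called Mel18) belongs to canonical Polycomb repressive complex 1 (PRC1), a repressor of developmental genes in cells that do not use them. Around a Ring1 or Rnf2 ubiquitin ligase, canonical PRC1 holds Pcgf2 or Bmi1, a Cbx protein that reads the histone mark left by PRC2, and a Phc protein through which complexes cluster. Spontaneously differentiating EB form cells like those of the early conceptus, among them visceral endoderm, primitive red blood cells, endothelium and mesoderm, while the genes of pluripotency are switched off. The comparison asked which of these programmes differed between cells labelled Pcgf2 KO and WT. Groups are called by their labels throughout: WT and KO stand for the libraries labelled so, and the Pcgf2 transcript was higher, not lower, in the libraries labelled Pcgf2 KO, with log2 fold changes of 0.57 in ESC, 0.69 on EB day 3, 1.29 on EB day 8 and 0.33 in NPC. Each direction given for KO is therefore that of the libraries so labelled.

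The day 8 EB libraries labelled Pcgf2 KO held far fewer transcripts of primitive red blood cells, of yolk sac endoderm, of collagens and of several imprinted growth genes, and far more transcripts of pluripotency and epiblast genes. The embryonic globin gene Hbb-bh1 stood at 3868 and 3282 TPM in WT and 145 and 169 TPM in Pcgf2 KO. Both KO libraries lay far below both WT libraries (log2 fold change -4.50 ± 0.26 (SE), adjusted p = 2.4e-07). Pou5f1, the core pluripotency factor, stood at 88.3 and 69.8 TPM in WT and 252 and 270.3 TPM in Pcgf2 KO, so that both KO libraries lay above both WT libraries (log2 fold change 1.72 ± 0.14 (SE), adjusted p = 2.3e-06). Fold changes are differences of log2(TPM + 1), KO minus WT, and understate the change of genes with few TPM.

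**Figure D1:**
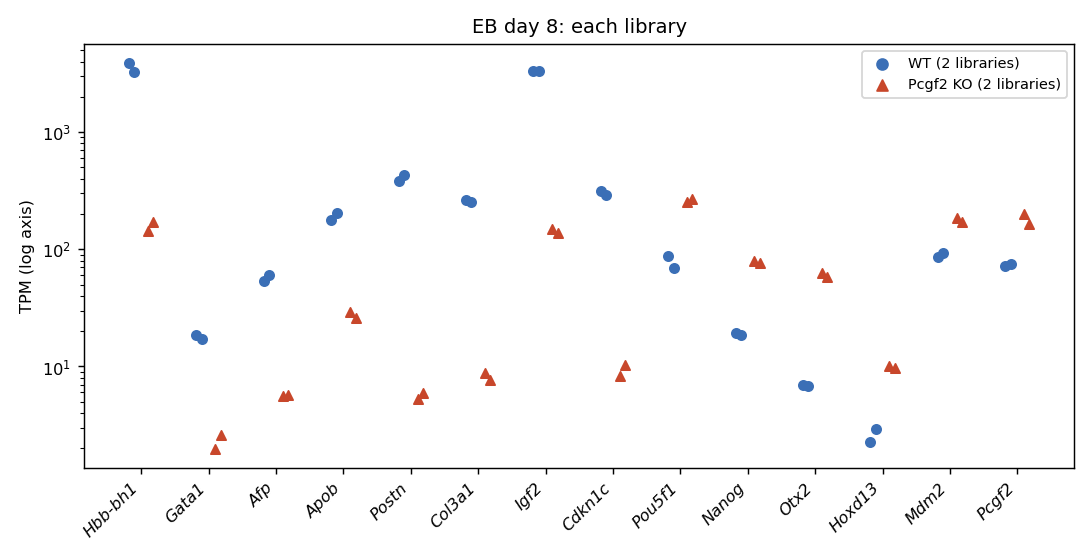
TPM of 14 genes in each EB day 8 library, on a log axis. Circles are the 2 WT libraries and triangles the 2 Pcgf2 KO libraries. The libraries of a group lay close together, and for every gene drawn the groups did not overlap: Hbb-bh1, Afp, Postn and Igf2 were lower in KO, and Pou5f1, Otx2, Mdm2 and Pcgf2 were higher.

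The libraries were first checked. Between 14520 and 15066 genes reached 1 TPM in each of the 4 libraries. Correlations of log2(TPM + 1) were 0.986 between the WT libraries, 0.989 between the KO libraries and 0.946 to 0.952 across the groups. TPM keep no read counts, so the depth is unknown and no interval for counting error is given. The transcript of the targeted gene was not lower in the libraries labelled Pcgf2 KO: Pcgf2 (chromosome 11) stood at 72.4 and 74.8 TPM in WT and 199 and 166 TPM in Pcgf2 KO (log2 fold change 1.29 ± 0.16 (SE), adjusted p = 5.9e-05), so the sum over the gene does not check the label here. The Y-linked gene Eif2s3y stood at 50.4 and 64.7 TPM in WT and 76.1 and 65.8 TPM in Pcgf2 KO on day 8 (log2 fold change 0.30 ± 0.20 (SE), adjusted p = 0.26), but at 0.435 ± 0.018, 2.12 ± 0.93 and 1.58 ± 0.22 TPM (mean ± SD, n = 2) in WT ESC, EB day 3 and NPC. The WT libraries of EB day 8 stood far above all other WT libraries for this gene.

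Genes on chromosome 11, where Pcgf2 lies, were shifted as a whole. The median log2 fold change of its 1176 tested genes was 0.52, against -0.01 over the genes of the other chromosomes. Higher calls made up 65.8% of the tested genes of chromosome 11, against 14.6% to 26.5% on each of the other autosomes and the X chromosome. The shift ran along the whole chromosome, with medians of 0.42 to 0.58 in windows of 10 Mb, and was present in both KO libraries (0.55 and 0.48 against the WT mean), while the WT libraries differed from each other by -0.004. Chromosome 11 stood above the other chromosomes in the KO at every stage, by 0.47 in ESC, 0.45 on EB day 3, 0.54 on EB day 8 and 0.51 in NPC on the log2 scale. Its genes gave 22.1% of all higher calls on day 8. The cause of the shift was not tested. Taking the excess of 0.54 off every gene of the chromosome left 216 higher and 272 lower calls on it, and rises of chromosome 11 genes are given below with this centred value. Pcgf2 itself remained higher after this centring (log2 fold change 0.75, adjusted p = 0.0028).

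**Figure D2:**
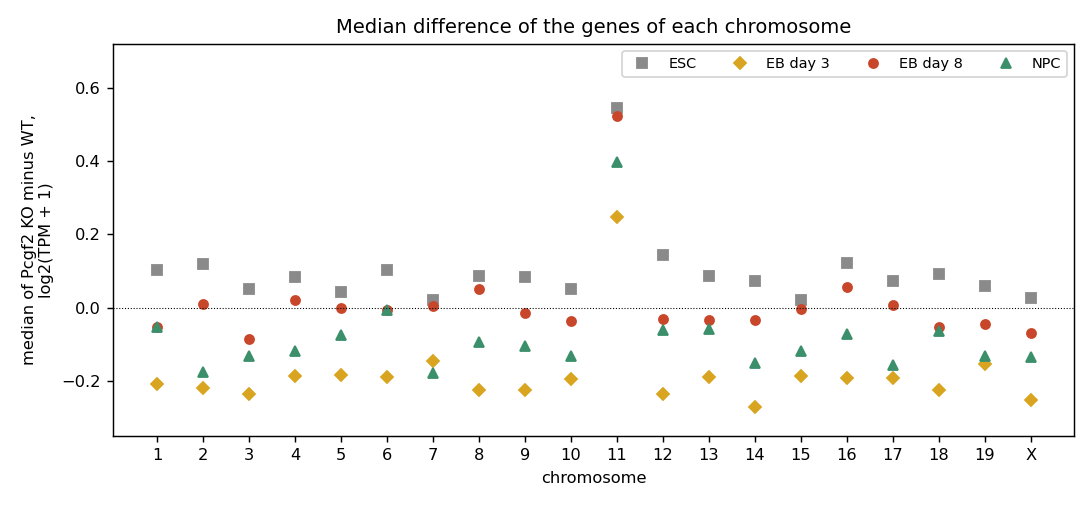
Median log2 fold change, Pcgf2 KO minus WT, of the tested genes of each chromosome (x axis) at the 4 stages, with 1 point per chromosome and stage on the log2(TPM + 1) scale. Chromosome 11 stood above every other chromosome drawn at each stage, at 0.52 on EB day 8 and 0.55 in ESC. The Y chromosome, with 10 tested genes, is not drawn.

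Over all genes, limma called 6597 of 15244 tested genes (43.3%) at an adjusted p under 0.05, 3509 (23%) higher and 3088 (20.3%) lower in KO. The groups did not overlap for 10743 genes (70.5%). The median log2 fold change over all tested genes was 0.02. Calls with at least a 2-fold change on this scale numbered 1348 (8.84%), of which 751 (4.93%) were higher and 597 (3.92%) lower. With median-of-ratios scaling 3007 genes were higher and 3898 lower, and without chromosome 11 genes 2686 were higher and 2979 lower. Without KO library 1 the higher calls numbered 2253. Counts of gene lists below are read against these shares of all genes. A gene that reached 1 TPM in the libraries of 1 group alone passed the filter through the group where it was high, so such members are counted apart. The lists were chosen with earlier results of these data known, so no test over a list is given. In these bulk samples, fewer cells of a type and less RNA per cell cannot be told apart.

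**Figure D3:**
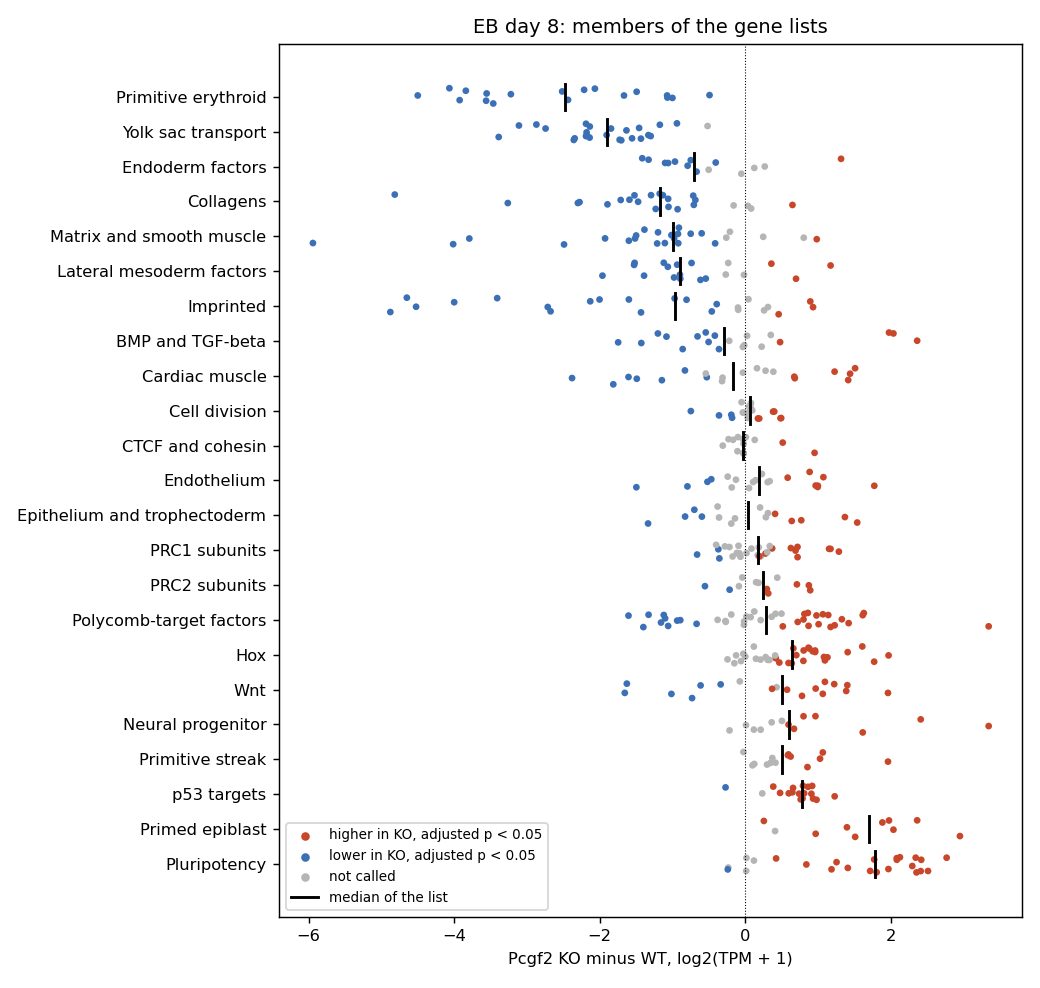
Log2 fold change, Pcgf2 KO minus WT, of the tested members of 23 gene lists on EB day 8. Each point is a gene, coloured by its call, and the black bar is the median of the list. Primitive erythroid (median -2.47) and yolk sac transport genes (-1.90) lay to the left, pluripotency (1.79) and primed epiblast genes (1.70) to the right, and cell division genes (0.06) near 0.

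Primitive erythroid genes gave the lowest median of the lists. Of 18 tested members 18 were lower in KO (median log2 fold change -2.47), against 20.3% lower calls among all genes. Slc4a1 and Hemgn passed the filter through WT alone, and the other 16 of 16 were lower. Their summed level was 6472 and 5720 TPM in WT and 352 and 377 TPM in Pcgf2 KO. Globins form the oxygen carrier of these cells, and the embryonic chains lead in the first wave of red blood cells of the yolk sac. Hba-x, the embryonic alpha-like globin, stood at 1418 and 1353 TPM in WT and 83.0 and 80.7 TPM in Pcgf2 KO (log2 fold change -4.07 ± 0.10 (SE), adjusted p = 8.9e-10). Hbb-y, an embryonic beta-like globin, stood at 112 and 114 TPM in WT and 8.91 and 8.45 TPM in Pcgf2 KO (log2 fold change -3.56 ± 0.17 (SE), adjusted p = 5e-08). The globin pseudogene Hbb-bh0, listed at 4534 and 4308 TPM in WT and 103 and 134 TPM in Pcgf2 KO, and the paired genes Hba-a1 and Hba-a2 resemble other globins closely, so that the counting could split or share their reads.

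The regulators of the red cell programme were lower too. Gata1, its master transcription factor, stood at 18.6 and 17.1 TPM in WT and 2.00 and 2.63 TPM in Pcgf2 KO (log2 fold change -2.52 ± 0.21 (SE), adjusted p = 2.7e-06). Klf1, which activates adult and embryonic globin genes, stood at 21.5 and 19.2 TPM in WT and 1.30 and 1.28 TPM in Pcgf2 KO (log2 fold change -3.22 ± 0.14 (SE), adjusted p = 2.7e-08). Both KO libraries stood far below both WT libraries for each. Alas2, the first enzyme of haem synthesis in red cells, stood at 35.4 and 39.7 TPM in WT and 1.91 and 3.20 TPM in Pcgf2 KO (log2 fold change -3.46 ± 0.26 (SE), adjusted p = 1.3e-06). Tal1 and Lmo2, which act earlier and also in endothelium, differed less, with Tal1 at 18.2 and 19.3 TPM in WT and 13.7 and 12.4 TPM in Pcgf2 KO (log2 fold change -0.49 ± 0.15 (SE), adjusted p = 0.023) and Lmo2 at a log2 fold change of -1.07 (adjusted p = 0.00033). Without the 4 members on chromosome 11, all 14 remaining members were lower.

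Promoter windows of Hba-x and Alas2 are shown because these erythroid genes fell together and the windows hold letters that GATA factors can read. Each window runs from 250 bases before to 50 bases after the RefSeq start, 5′ to 3′ on the gene's strand (the plus strand for both), from RefSeq on GRCm38.p6. Capitals mark AGATAA or TGATAA, or their reverse complements TTATCT and TTATCA. Other forms of the GATA motif were neither marked nor counted.
Hba-x (chr11:32276350-32276649): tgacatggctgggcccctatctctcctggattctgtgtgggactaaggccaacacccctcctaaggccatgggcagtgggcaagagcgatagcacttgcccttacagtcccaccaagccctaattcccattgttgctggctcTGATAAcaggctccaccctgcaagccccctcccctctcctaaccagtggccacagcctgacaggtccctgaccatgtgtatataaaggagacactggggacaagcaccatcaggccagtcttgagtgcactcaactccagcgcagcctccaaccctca
Alas2 (chrX:150547167-150547466): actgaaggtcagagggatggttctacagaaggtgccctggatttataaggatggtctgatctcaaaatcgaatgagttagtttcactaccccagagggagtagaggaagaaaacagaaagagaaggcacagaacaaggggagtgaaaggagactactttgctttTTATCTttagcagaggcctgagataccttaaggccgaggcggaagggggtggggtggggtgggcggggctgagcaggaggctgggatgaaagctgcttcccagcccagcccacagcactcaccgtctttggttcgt
Each of these windows held 1 match to the marked letters. These letters stood in 19% of all 27025 promoter windows of the table and in 9.88% of those of tested genes, so a match is a description and not a binding site. Only 13 of the 18 tested erythroid genes had a window, fewer than 80%, so no share over the list is given.

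Other blood lineages were scarce in both groups. Of 8 tested genes for stem cells, platelets and macrophages, 2 rose and 3 fell (1 lower without WT library 1), and 7 others were too low to test. Of the 8 tested, 1 lower member passed the filter through WT alone, and among the other 7 tested 2 were higher and 2 lower. The macrophage genes C1qb, Tyrobp and Csf1r stood at under 1 TPM in every library, C1qb at 0. Runx1, which is needed for definitive blood, stood at 10.5 and 9.46 TPM in WT and 6.16 and 6.12 TPM in Pcgf2 KO (log2 fold change -0.62 ± 0.17 (SE), adjusted p = 0.011). Endothelial genes took neither side, with 7 of 20 higher and 4 lower (median 0.19), and 5 of 18 higher without chromosome 11. The lower calls numbered 2 without WT library 1 and 2 without WT library 2, and Robo4 and Lyve1 passed the filter through 1 group alone. Their summed level was 351 and 342 TPM in WT and 429 and 417 TPM in KO. Etv2, the factor that starts blood and endothelial fate, was higher in KO, at 6.19 and 5.80 TPM in WT and 20.9 and 25.2 TPM in Pcgf2 KO (log2 fold change 1.78 ± 0.16 (SE), adjusted p = 5.8e-06). Kdr, the receptor that marks endothelium and its precursors, stood at 26.5 and 29.3 TPM in WT and 33.6 and 32.2 TPM in Pcgf2 KO and did not pass the test (adjusted p = 0.19). Cdh5, the junction protein of endothelium, stood at 28.3 and 27.4 TPM in WT and 29.9 and 28.1 TPM in Pcgf2 KO with overlapping groups (adjusted p = 0.8). Lyve1, found on lymphatic and yolk sac endothelium, fell from 2.31 and 1.97 TPM to 0.127 and 0.0967 TPM (log2 fold change -1.50 ± 0.18 (SE), adjusted p = 4.4e-05).

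Yolk sac endoderm genes formed the second group of large falls. Visceral endoderm takes up and exports lipids and proteins for the embryo, and of its 25 tested transport and secretion genes, 24 were lower and 0 higher in KO (median -1.90). Apoc3, Fga and Spp2 passed the filter through WT alone, and 21 of the other 22 were lower. Summed levels of this list were 5600 and 5067 TPM in WT and 1560 and 1639 TPM in Pcgf2 KO. Afp, the fetal serum protein alpha-fetoprotein, stood at 53.5 and 60.2 TPM in WT and 5.64 and 5.73 TPM in Pcgf2 KO (log2 fold change -3.11 ± 0.14 (SE), adjusted p = 3.9e-08). Apob, the protein core of lipoproteins, stood at 178 and 204 TPM in WT and 29.4 and 25.9 TPM in Pcgf2 KO (log2 fold change -2.74 ± 0.23 (SE), adjusted p = 3e-06). Both genes showed KO libraries far below WT libraries, with close replicates. Rbp4, which carries retinol in serum, stood at 285 and 256 TPM in WT and 50.3 and 54.5 TPM in Pcgf2 KO (log2 fold change -2.34 ± 0.18 (SE), adjusted p = 1.5e-06). Ttr, which carries thyroxine and binds Rbp4, stood at 299 and 261 TPM in WT and 58.5 and 62.8 TPM in Pcgf2 KO (log2 fold change -2.19 ± 0.18 (SE), adjusted p = 2.2e-06). Apoa2, an apolipoprotein, had the largest fall of the list, at 57.9 and 52.5 TPM in WT and 4.33 and 4.40 TPM in Pcgf2 KO (log2 fold change -3.39 ± 0.28 (SE), adjusted p = 2.7e-06). Cubn, the uptake receptor cubilin, stood at 96.4 and 114 TPM in WT and 32.5 and 29.8 TPM in Pcgf2 KO (log2 fold change -1.73 ± 0.14 (SE), adjusted p = 2.3e-06). Trf, transferrin, was the member that did not pass the test, at 4.07 and 5.73 TPM in WT and 1.99 and 4.57 TPM in Pcgf2 KO with overlapping groups (adjusted p = 0.15). Alb, a marker of later liver, was listed at 0 in all 4 libraries.

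Transcription factors of endoderm were lower by smaller amounts. Of 14 tested, 9 were lower and 1 higher (median -0.71). Hnf4a, which drives the transport programme of visceral endoderm, stood at 19.0 and 18.3 TPM in WT and 7.16 and 5.66 TPM in Pcgf2 KO (log2 fold change -1.41 ± 0.26 (SE), adjusted p = 0.001). Gata6 and Gata4, which specify primitive endoderm and also act in heart mesoderm, had log2 fold changes of -1.33 and -0.67 (adjusted p = 6.1e-05 and 0.0026). Gata4 stood at 77.7 and 82.2 TPM in WT and 53.5 and 46.7 TPM in Pcgf2 KO, a far smaller drop than that of the genes for transport. Foxa2 stood at 18.8 and 14.9 TPM in WT and 6.92 and 7.64 TPM in Pcgf2 KO (log2 fold change -1.10 ± 0.17 (SE), adjusted p = 0.00029). Sox7 stood at 12.5 and 13.04 TPM in WT and 12.3 and 12.2 TPM in Pcgf2 KO and did not pass the test (adjusted p = 0.81). Nr5a2, which also acts in pluripotent cells, was the member that was higher, at 1.21 and 1.67 TPM in WT and 5.42 and 4.70 TPM in Pcgf2 KO (log2 fold change 1.32 ± 0.14 (SE), adjusted p = 2.4e-05).

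Collagen and matrix genes made up the third group of falls. Of 23 tested collagen genes 19 were lower and 1 higher (median -1.17), and of 26 tested matrix and smooth muscle genes 21 were lower and 1 higher (median -0.997). Of the members that did not pass the filter through WT alone, 15 of 19 collagen genes and 19 of 24 matrix genes were lower. Postn, the matrix protein periostin, had the largest fall of all genes named by the rule, from 384 and 429 TPM in WT to 5.31 and 5.95 TPM in KO (log2 fold change -5.94 ± 0.17 (SE), adjusted p = 1e-09). Col3a1, a fibrillar collagen, stood at 263 and 255 TPM in WT and 8.78 and 7.73 TPM in Pcgf2 KO (log2 fold change -4.82 ± 0.15 (SE), adjusted p = 2.9e-09). Col1a1 and Col1a2 encode the chains of type I collagen. Col1a1, on chromosome 11, stood at 371 and 382 TPM in WT and 138 and 124 TPM in Pcgf2 KO (log2 fold change -1.52 ± 0.16 (SE), adjusted p = 1.6e-05), and its centred value was -2.06. Col1a2 stood at 189 and 183 TPM in WT and 20.8 and 16.5 TPM in Pcgf2 KO (log2 fold change -3.26 ± 0.19 (SE), adjusted p = 3.2e-07), so its drop was the larger of the pair on either scale. Acta2, the actin of smooth muscle, stood at 443 and 445 TPM in WT and 27.1 and 26.1 TPM in Pcgf2 KO (log2 fold change -4.01 ± 0.12 (SE), adjusted p = 2.6e-09). Col4a1, a chain of type IV collagen, stood at 529 and 543 TPM in WT and 352 and 316 TPM in Pcgf2 KO (log2 fold change -0.68 ± 0.12 (SE), adjusted p = 0.00085). Sparc, which binds collagen IV, stood at 1017 and 1015 TPM in WT and 509 and 497 TPM in Pcgf2 KO (log2 fold change -1.01 ± 0.06 (SE), adjusted p = 3.2e-07), and its centred value was -1.55. Col18a1 stood at 127 and 126 TPM in WT and 129.8 and 130.2 TPM in Pcgf2 KO and did not pass the test (adjusted p = 0.76). Lum, the proteoglycan lumican, was close to 0 in KO, at 12.3 and 14.7 TPM in WT and 0.019 and 0.0694 TPM in Pcgf2 KO (log2 fold change -3.79 ± 0.13 (SE), adjusted p = 4.6e-09). It passed the filter through WT alone.

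Factors of lateral and extraembryonic mesoderm were lower as well, with 13 of 19 tested members lower and 3 higher (median -0.89). Hand1, which is abundant in the mesoderm of yolk sac and allantois and in heart, stood at 560.4 and 589 TPM in WT and 271 and 257 TPM in Pcgf2 KO (log2 fold change -1.12 ± 0.16 (SE), adjusted p = 0.00014), and at -1.65 after chromosome 11 was centred. Hand2, its relative, stood at 139.7 and 138 TPM in WT and 76.5 and 72.1 TPM in Pcgf2 KO (log2 fold change -0.89 ± 0.13 (SE), adjusted p = 0.00024). Snai2, which promotes the change from epithelium to mesenchyme, stood at 59.9 and 64.9 TPM in WT and 17.2 and 13.6 TPM in Pcgf2 KO (log2 fold change -1.96 ± 0.18 (SE), adjusted p = 6.8e-06). Tbx4, a factor of allantois and hindlimb on chromosome 11, was higher, at 13.1 and 15.1 TPM in WT and 34.2 and 31.8 TPM in Pcgf2 KO (log2 fold change 1.18 ± 0.21 (SE), adjusted p = 0.00081; 0.64 and adjusted p = 0.03 when centred). Isl1 stood at 15.0 and 15.4 TPM in WT and 16.9 and 13.4 TPM in Pcgf2 KO with overlapping groups and did not pass the test.

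Heart muscle genes split in direction, with 6 of 20 tested members higher and 7 lower (median -0.17). Without KO library 1, 3 of 19 were higher and 5 lower, without KO library 2, 3 of 19 were higher and 7 lower, and 4 members passed the filter through 1 group alone, Tbx5 among them. Among the lower ones were Tbx5, a factor of the first heart field, at 4.29 and 4.24 TPM in WT and 0.676 and 0.791 TPM in Pcgf2 KO (log2 fold change -1.60 ± 0.15 (SE), adjusted p = 8.1e-06), and the troponin gene Tnni1, at 36.0 and 33.0 TPM in WT and 6.30 and 5.36 TPM in Pcgf2 KO (log2 fold change -2.38 ± 0.18 (SE), adjusted p = 1.4e-06). The higher ones included the sarcomere genes Myl7, at 1.67 and 1.72 TPM in WT and 5.42 and 8.19 TPM in Pcgf2 KO (log2 fold change 1.51 ± 0.19 (SE), adjusted p = 5.8e-05; 0.98 when centred on chromosome 11), and Myh6, at 1.22 and 0.684 TPM in WT and 5.04 and 3.58 TPM in Pcgf2 KO (log2 fold change 1.44 ± 0.24 (SE), adjusted p = 0.00051). Ttn, which encodes the giant sarcomere protein titin, stood at under 0.05 TPM in every library.

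Imprinted genes, which are expressed from the chromosome of a single parent and many of which control growth, gave 15 lower and 3 higher of 23 tested members (median -0.97), 1 of which, Dcn, passed the filter through WT alone. Igf2, the fetal growth factor, stood at 3290 and 3309 TPM in WT and 149 and 137 TPM in Pcgf2 KO (log2 fold change -4.52 ± 0.15 (SE), adjusted p = 4.6e-09). Cdkn1c, an inhibitor of the cell cycle in the neighbouring imprinted domain, stood at 313 and 290 TPM in WT and 8.31 and 10.4 TPM in Pcgf2 KO (log2 fold change -4.88 ± 0.17 (SE), adjusted p = 5.9e-09). Dlk1, a Notch ligand-like growth regulator of another imprinted domain, stood at 173 and 159.9 TPM in WT and 6.20 and 5.17 TPM in Pcgf2 KO (log2 fold change -4.65 ± 0.12 (SE), adjusted p = 8.9e-10). For these genes the KO libraries held a small part of the WT level. Grb10, an adaptor that restrains insulin signalling, stood at 144 and 163 TPM in WT and 10.1 and 7.42 TPM in Pcgf2 KO (log2 fold change -4.00 ± 0.15 (SE), adjusted p = 1e-08), although it lies on chromosome 11. Igf2r, the receptor that removes Igf2, stood at 149.7 and 152 TPM in WT and 20.2 and 24.2 TPM in Pcgf2 KO (log2 fold change -2.71 ± 0.17 (SE), adjusted p = 5e-07), and the transcription factor Plagl1 at 223 and 265 TPM in WT and 40.7 and 34.1 TPM in Pcgf2 KO (log2 fold change -2.67 ± 0.19 (SE), adjusted p = 7.8e-07). Other members were higher. Mest, a hydrolase-like gene linked to growth, stood at 885 and 966 TPM in WT and 1812 and 1725 TPM in Pcgf2 KO (log2 fold change 0.93 ± 0.08 (SE), adjusted p = 2.9e-06). Snrpn, which encodes a splicing protein, stood at 114 and 111 TPM in WT and 216 and 204 TPM in Pcgf2 KO (log2 fold change 0.90 ± 0.07 (SE), adjusted p = 1.4e-06). Peg3, a zinc finger gene, stood at 430 and 494 TPM in WT and 463 and 401 TPM in Pcgf2 KO with overlapping groups (adjusted p = 0.63). Of 30 listed members 6 were not analysed here.

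Pluripotency genes gave the highest median of the lists with more than 10 tested members, with 19 of 24 higher and 1 lower in KO (median 1.79), against 23% higher calls among all genes. Nr0b1 and Prdm14 passed the filter through KO alone, and 17 of the other 22 were higher. Their summed level was 925 and 846 TPM in WT and 2440 and 2436 TPM in Pcgf2 KO. Nanog, a core pluripotency factor, stood at 19.5 and 18.6 TPM in WT and 78.8 and 76.0 TPM in Pcgf2 KO (log2 fold change 1.97 ± 0.06 (SE), adjusted p = 2.6e-09). Sox2, the partner of Pou5f1, stood at 17.4 and 13.9 TPM in WT and 91.4 and 83.2 TPM in Pcgf2 KO (log2 fold change 2.41 ± 0.15 (SE), adjusted p = 3.7e-07). Zfp42 (Rex1), a marker of naive cells, stood at 20.9 and 21.1 TPM in WT and 117 and 107 TPM in Pcgf2 KO (log2 fold change 2.36 ± 0.09 (SE), adjusted p = 1.3e-08). The KO libraries lay above the WT libraries for each of these genes. Esrrb and Klf2, factors of the naive state, rose by 2.30 and 2.35 (adjusted p = 6.3e-07 and 1.3e-08). Klf4 and Tfcp2l1 belong to the same naive circuit and did not pass the test. Klf4 stood at 12.1 and 12.6 TPM in WT and 13.2 and 12.0 TPM in Pcgf2 KO with overlapping groups (adjusted p = 0.87). Tfcp2l1 stood at 5.34 and 5.03 TPM in WT and 5.61 and 4.91 TPM in Pcgf2 KO, also with overlapping groups (adjusted p = 0.94). Tdgf1, the Nodal co-receptor Cripto, had the largest rise of the list, at 20.9 and 22.6 TPM in WT and 166 and 143 TPM in Pcgf2 KO (log2 fold change 2.77 ± 0.09 (SE), adjusted p = 2.6e-09). Its pseudogene Tdgf1-ps1 was listed at 7.97 and 7.16 TPM in WT and 70.9 and 64.1 TPM in Pcgf2 KO, and reads of the 2 may have been shared. Lin28a, an RNA-binding protein of early development, was the member that was lower (175 and 171 TPM in WT and 151 and 142 TPM in Pcgf2 KO, log2 fold change -0.24 ± 0.07 (SE), adjusted p = 0.021).

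Primed epiblast genes rose beside the naive ones, with 9 of 10 tested members higher and 0 lower (median 1.70), and 8 of 9 without Pou3f1, which passed the filter through KO alone. Otx2, which moves cells from the naive to the primed state, stood at 7.00 and 6.84 TPM in WT and 62.7 and 58.1 TPM in Pcgf2 KO (log2 fold change 2.95 ± 0.12 (SE), adjusted p = 1.3e-08). Fgf5, the classic epiblast marker, stood at 1.75 and 1.17 TPM in WT and 5.62 and 5.28 TPM in Pcgf2 KO (log2 fold change 1.40 ± 0.17 (SE), adjusted p = 5.8e-05). Nodal, the signal that maintains the epiblast, stood at 7.23 and 5.37 TPM in WT and 27.2 and 27.9 TPM in Pcgf2 KO (log2 fold change 1.98 ± 0.10 (SE), adjusted p = 1.1e-07). Lefty2, its feedback inhibitor, stood at 5.35 and 5.34 TPM in WT and 32.9 and 30.5 TPM in Pcgf2 KO (log2 fold change 2.37 ± 0.14 (SE), adjusted p = 2.4e-07), and the related Lefty1 rose by 2.04. Each of these genes had both KO libraries above both WT libraries. Dnmt3b and Dnmt3a, the de novo DNA methyltransferases, rose by 0.97 and 0.26 (adjusted p = 7.5e-07 and 0.03). Fgf8 did not pass the test, at 9.38 and 7.99 TPM in WT and 11.4 and 12.3 TPM in Pcgf2 KO (adjusted p = 0.089). Primitive streak genes gave 7 higher and 0 lower of 14 tested (median 0.50), and 5 of 12 higher without chromosome 11. Mesp2 and Wnt8a passed the filter through KO alone, and 5 of the other 12 were higher. Without KO library 1, 3 of 12 were higher (median 0.33), and among genes with at least 5 TPM 3 of 7. Eomes, a T-box factor of the streak and its endoderm, stood at 6.08 and 5.51 TPM in WT and 11.9 and 10.7 TPM in Pcgf2 KO (log2 fold change 0.86 ± 0.11 (SE), adjusted p = 6.2e-05). Mixl1, a homeobox factor of the streak, stood at 3.03 and 3.64 TPM in WT and 8.32 and 7.37 TPM in Pcgf2 KO (log2 fold change 1.03 ± 0.16 (SE), adjusted p = 0.00028). T (brachyury), which defines the streak, stood at 16.4 and 12.3 TPM in WT and 18.9 and 17.7 TPM in Pcgf2 KO and did not pass the test (adjusted p = 0.32).

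The levels at the other stages place these values. In WT cells Pou5f1 stood at 1545 ± 92 TPM (mean ± SD, n = 2) in ESC and 1261 ± 18 TPM on EB day 3, and in Pcgf2 KO cells at 1275 ± 137 and 996 ± 34 TPM. Its level on day 8 was thus below that of the earlier stages in both genotypes. The KO effect on Pou5f1 was larger on day 8 than on day 3 by 2.06 on the log2 scale (adjusted p = 1.4e-05) and smaller than in NPC by 5.57 (adjusted p = 1.7e-09). In NPC its level was 1.14 ± 0.48 TPM for WT and 329 ± 16 TPM for KO. Otx2 was already at 137 ± 18 TPM in WT and 168 ± 5.3 TPM in KO on EB day 3, and only the KO libraries stood far above the ESC level (6.85 ± 0.41 TPM in WT) on day 8. Hbb-bh1 and Postn stood at under 2 TPM in every ESC and EB day 3 library. Their KO effects differed between day 8 and day 3 by -4.56 and -5.94 (adjusted p = 4.2e-06 and 3.6e-08). With KO effects of 0.064 and 0 on day 3, these differences largely restated the fold changes of day 8.

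**Figure D4:**
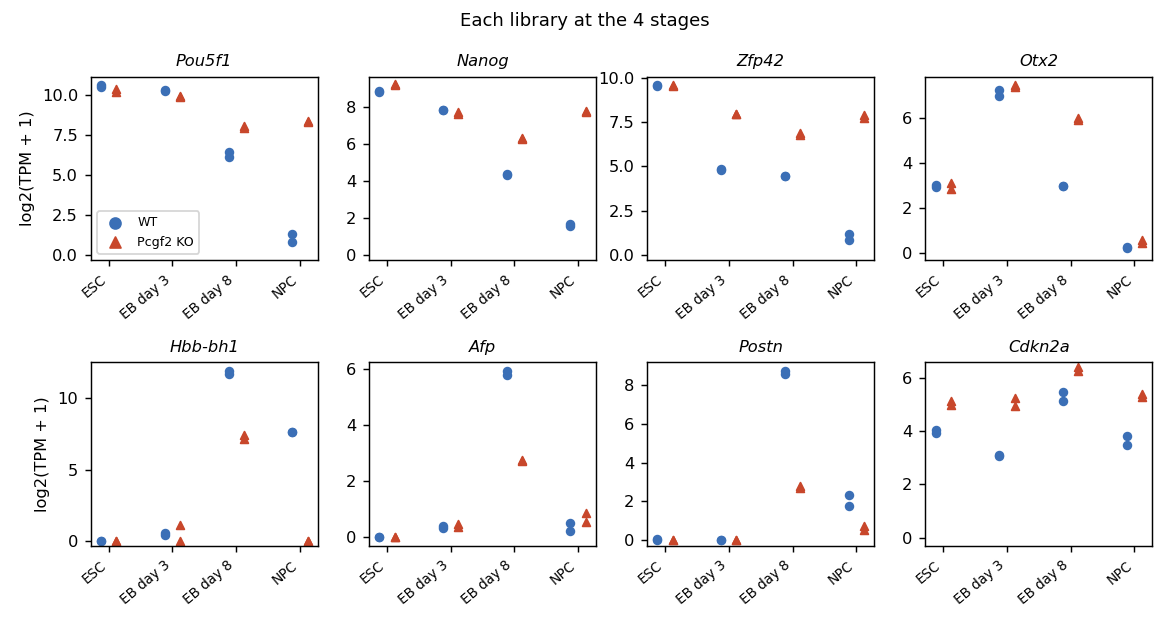
Log2(TPM + 1) of 8 genes in each library of WT (circles) and Pcgf2 KO (triangles) at the 4 stages, 2 libraries per group. Pou5f1 and Nanog lay above WT in KO on EB day 8 and in NPC, and Hbb-bh1, Afp and Postn were high on EB day 8 in WT and lower in KO. Cdkn2a was higher in KO at every stage drawn.

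Across all genes the KO effect differed between day 8 and day 3 for 6586 genes (43.2%), 4605 (30.2%) of them more positive and 1981 (13%) more negative on day 8. With median-of-ratios scaling this split was 2807 against 2956. Without that scaling, the median KO effect over genes off chromosome 11 was -0.20 on EB day 3 and -0.01 on EB day 8. Against NPC the KO effect differed for 8634 genes (56.6%), 4876 (32%) more positive and 3758 (24.7%) more negative. Because the WT libraries of EB day 8 and of the other stages differed in Y-linked transcripts, these differences between stages cannot be told apart from differences between the WT cells used. The same holds for Hand1, whose KO effect was -1.12 on day 8, 1.13 on day 3 and 3.87 in NPC, with each difference past the test (adjusted p = 1.6e-05 and 7.1e-09).

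Hox genes, the body-axis factors that Polycomb complexes keep silent outside their domains, were higher by paralog group. Of 33 tested Hox genes 20 were higher and 0 lower (median 0.64), and without KO library 1, 13 of 32 were higher. Among groups 9 to 13, which pattern the posterior end, 14 of 14 were higher (median 0.95), against 2 of 9 in groups 1 to 4 and 4 of 10 in groups 5 to 8. Hoxb13 passed the filter through KO alone, and without KO library 1 the counts were 10 of 13, 1 of 9 and 2 of 10. Hoxd13 stood at 2.25 and 2.94 TPM in WT and 10.2 and 9.68 TPM in Pcgf2 KO (log2 fold change 1.61 ± 0.16 (SE), adjusted p = 1.1e-05). Hoxc13 stood at 1.35 and 0.958 TPM in WT and 7.49 and 7.36 TPM in Pcgf2 KO (log2 fold change 1.97 ± 0.14 (SE), adjusted p = 1.2e-06). Both KO libraries lay above both WT libraries for each. Hoxa9 stood at 10.6 and 12.6 TPM in WT and 23.9 and 18.1 TPM in Pcgf2 KO (log2 fold change 0.80 ± 0.19 (SE), adjusted p = 0.005; without KO library 1 the log2 fold change was 0.61 with adjusted p = 0.056). Anterior members such as Hoxa3, at 3.13 and 0.907 TPM in WT and 1.92 and 1.49 TPM in Pcgf2 KO with overlapping groups, did not pass the test (adjusted p = 0.89). The Hoxb cluster lies on chromosome 11. Without it 12 of 12 tested genes of groups 9 to 13 were higher, and after centring Hoxb7, Hoxb8 and Hoxb9 were no longer called while Hoxb2, Hoxb4 and Hoxb5 were lower.

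**Figure D5:**
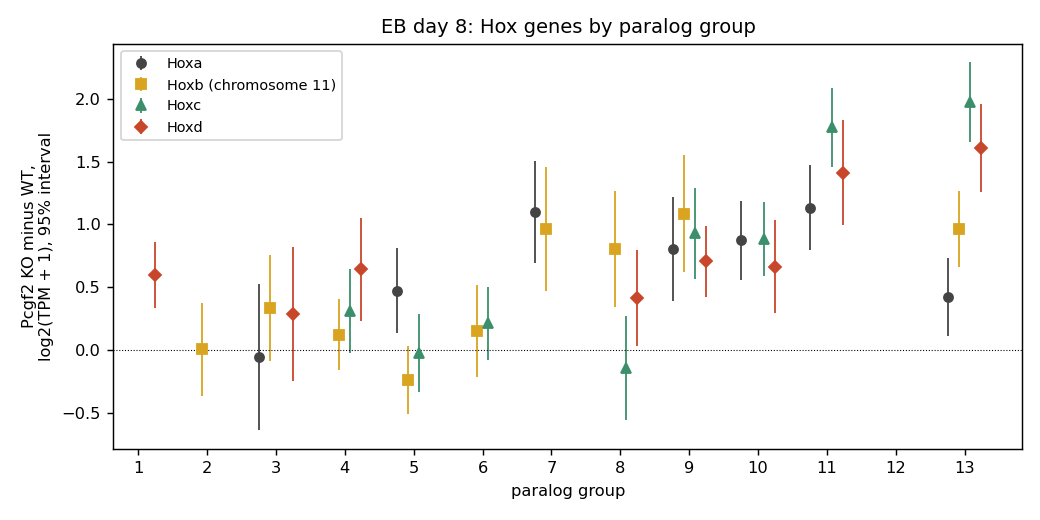
Log2 fold change, Pcgf2 KO minus WT, with 95% intervals from the fit, of tested Hox genes on EB day 8 by paralog group (x axis) and cluster (marker). Genes of groups 9 to 13 lay above 0 in all clusters, up to 1.97 for Hoxc13, while those drawn of groups 1 to 6 lay between -0.24 and 0.64.

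Promoters of Hoxd13 and Postn are printed to show the base composition at the start of a posterior Hox gene and of the gene with the largest fall. Both windows are RefSeq on GRCm38.p6, plus strand, 250 bases before to 50 after the start, with CG dinucleotides in capitals.
Hoxd13 (chr2:74667975-74668274): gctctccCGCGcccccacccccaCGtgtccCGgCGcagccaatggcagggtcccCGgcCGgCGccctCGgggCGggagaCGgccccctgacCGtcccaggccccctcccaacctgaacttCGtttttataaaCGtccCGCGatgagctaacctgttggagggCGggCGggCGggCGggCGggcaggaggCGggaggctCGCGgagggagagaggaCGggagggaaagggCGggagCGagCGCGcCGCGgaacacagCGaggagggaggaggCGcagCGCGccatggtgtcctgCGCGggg
Postn (chr3:54359017-54359316): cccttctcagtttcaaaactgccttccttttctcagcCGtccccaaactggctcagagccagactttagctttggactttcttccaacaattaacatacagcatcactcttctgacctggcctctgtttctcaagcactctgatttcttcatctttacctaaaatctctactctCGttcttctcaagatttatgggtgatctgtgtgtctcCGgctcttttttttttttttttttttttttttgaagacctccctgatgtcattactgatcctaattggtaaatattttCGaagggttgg
The Hoxd13 window held 37 CG dinucleotides, a number reached by 5.37% of all 27025 windows, and that of Postn held 4, reached by 68.1%. The median was 7 over all windows and 20 over those of the 10737 tested genes that had one. Of the 14 tested genes of groups 9 to 13 only 8 had a window, so no value over them is given.

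Other Polycomb-target developmental factors moved in both directions. Of 40 tested, 17 were higher and 10 lower (median 0.29). Among genes with at least 5 TPM the balance turned to 6 higher and 8 lower of 22 (median -0.10), and without KO library 1, as without KO library 2, 11 of 36 were higher and 10 lower. Of the 35 members that passed the filter through neither group alone, 13 were higher and 9 lower. The lower ones included the endoderm factors Gata4, Gata6, Foxa1 and Foxa2 and the mesoderm factors Hand1, Hand2, Tbx5 and Wt1. Zic1, a factor of dorsal neural tissue, had the largest rise of the list, at 1.28 and 1.35 TPM in WT and 23.9 and 21.3 TPM in Pcgf2 KO (log2 fold change 3.35 ± 0.27 (SE), adjusted p = 2.5e-06). Tbx15 and Dlx6, factors of skeletal and limb mesenchyme, rose by 1.63 and 1.33 (adjusted p = 1.6e-06 and 0.00022). Phox2a, a factor of autonomic neurons, fell from 7.66 and 8.36 TPM to 3.47 and 2.66 TPM (log2 fold change -1.16 ± 0.15 (SE), adjusted p = 0.0001). Irx3 and Irx5, neighbouring homeobox genes, did not pass the test. Irx3 stood at 16.3 and 12.7 TPM in WT and 14.7 and 13.8 TPM in Pcgf2 KO with overlapping groups (log2 fold change -0.01, adjusted p = 0.95). Irx5 stood at 3.98 and 3.25 TPM in WT and 3.84 and 3.48 TPM in Pcgf2 KO, also with overlapping groups (adjusted p = 0.94). Irx2 was the called member of the Irx genes, at 4.28 and 5.75 TPM in WT and 12.0 and 12.3 TPM in Pcgf2 KO (log2 fold change 1.14 ± 0.12 (SE), adjusted p = 1.8e-05).

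Of 13 tested neural progenitor genes 7 were higher and 0 lower (median 0.60), but 4 of them passed the filter through KO alone, and 4 of the other 9 were higher. Without KO library 1, 3 of 9 were higher (median 0.33), and without KO library 2, 4 of 9. The higher ones included Sox2 and Gbx2, which pluripotent cells also express, and 11 listed members were too low to test. Sox1 and Neurog1, which define neural progenitors, stood at under 0.4 TPM in every library. Pax6 stood at 0.849 and 0.204 TPM in WT and 1.21 and 1.03 TPM in Pcgf2 KO and did not pass the test (adjusted p = 0.1; 0.024 without WT library 1). Neuron genes gave 6 higher and 0 lower of 12 tested (median 0.38), and 12 others were too low to test. Elavl3, Neurod1 and Chga passed the filter through KO alone, and 3 of the other 9 were higher. Without KO library 1, 1 of 9 was higher (median 0.26), and without KO library 2, 1 of 9 (median -0.04). Ina, a neurofilament gene, stood at 1.86 and 1.81 TPM in WT and 10.9 and 10.2 TPM in Pcgf2 KO (log2 fold change 2.03 ± 0.12 (SE), adjusted p = 2.4e-07). Tubb3, the neuronal tubulin, stood at 7.42 and 9.22 TPM in WT and 6.25 and 6.73 TPM in Pcgf2 KO (adjusted p = 0.14). Neural crest genes gave 4 higher and 1 lower of 8 tested, and without KO library 1, 2 of 7 were higher and 1 lower (median -0.16). Pax3 passed the filter through KO alone. Pax3, a factor of neural crest and dorsal neural tube, stood at 0.18 and 0.214 TPM in WT and 1.46 and 1.56 TPM in Pcgf2 KO (log2 fold change 1.07 ± 0.18 (SE), adjusted p = 0.00049).

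Epithelial and trophectoderm genes gave 5 higher and 4 lower of 16 tested (median 0.03). Krt8, a keratin of simple epithelia such as visceral endoderm, stood at 621 and 569.7 TPM in WT and 378 and 411 TPM in Pcgf2 KO (log2 fold change -0.59 ± 0.10 (SE), adjusted p = 0.00054). Its partner Krt18 stood at 629.9 and 587 TPM in WT and 358 and 392 TPM in Pcgf2 KO (log2 fold change -0.70 ± 0.10 (SE), adjusted p = 0.00012). Grhl2, a factor of epithelial junctions, was higher, at 3.51 and 2.98 TPM in WT and 10.1 and 9.81 TPM in Pcgf2 KO (log2 fold change 1.37 ± 0.11 (SE), adjusted p = 2.6e-06). Tfap2c, which acts in trophectoderm and germ cells, stood at 5.57 and 5.37 TPM in WT and 18.4 and 17.3 TPM in Pcgf2 KO (log2 fold change 1.54 ± 0.18 (SE), adjusted p = 3.6e-05). Prl3d1, which defines trophoblast giant cells, was listed at 0 in every library.

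Target genes of p53 were higher by a modest amount, with 16 of 18 tested members higher and 1 lower (median 0.78), and 15 of 17 higher without chromosome 11. Mdm2, the ligase that removes p53, stood at 86.0 and 93.0 TPM in WT and 184 and 172 TPM in Pcgf2 KO (log2 fold change 0.98 ± 0.12 (SE), adjusted p = 4.1e-05). Ccng1, a cyclin-like target on chromosome 11, stood at 158 and 180.1 TPM in WT and 414 and 381 TPM in Pcgf2 KO (log2 fold change 1.23 ± 0.09 (SE), adjusted p = 7.8e-07; 0.69 when centred). Aen, a nuclease gene of the apoptotic response, stood at 76.6 and 70.0 TPM in WT and 138 and 139 TPM in Pcgf2 KO (log2 fold change 0.91 ± 0.06 (SE), adjusted p = 7.6e-07). The 2 KO libraries exceeded the 2 WT libraries for each of these. Cdkn1a, the cell-cycle inhibitor p21, rose less, from 123 and 120.2 TPM to 170.3 and 170.1 TPM (log2 fold change 0.48 ± 0.07 (SE), adjusted p = 0.00018). Fas, a death receptor gene, did not pass the test (adjusted p = 0.33). Sesn1, a stress gene, was lower (log2 fold change -0.27, adjusted p = 0.02).

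Inhibitors of cyclin-dependent kinases divided evenly, with 3 higher and 3 lower of 7. Cdkn2a, a classic Polycomb target that encodes p16 and Arf, stood at 43.3 and 34.1 TPM in WT and 75.7 and 83.9 TPM in Pcgf2 KO (log2 fold change 1.03 ± 0.14 (SE), adjusted p = 9.9e-05). Its neighbour Cdkn2b stood at 2.92 and 2.56 TPM in WT and 8.17 and 7.39 TPM in Pcgf2 KO (log2 fold change 1.23 ± 0.13 (SE), adjusted p = 2.1e-05). Cdkn1c fell as given above, and Cdkn1b, encoding p27, stood at 71.6 and 78.2 TPM in WT and 33.6 and 34.6 TPM in Pcgf2 KO (log2 fold change -1.11 ± 0.08 (SE), adjusted p = 7.8e-07). Cell division genes split in direction. Of 20 tested, 6 were higher and 4 lower (median 0.06), a share close to that of all genes, and without chromosome 11 3 of 17 were higher and 3 lower. Without WT library 2 or without KO library 2, 1 was lower. The proliferation marker Mki67 stood at 91.7 and 108 TPM in WT and 63.6 and 54.5 TPM in Pcgf2 KO (log2 fold change -0.75 ± 0.19 (SE), adjusted p = 0.0074). Cdk1, the kinase of mitotic entry, stood at 334 and 327 TPM in WT and 255 and 260.3 TPM in Pcgf2 KO (log2 fold change -0.36 ± 0.06 (SE), adjusted p = 0.00036). Top2a, Aurkb and Birc5, all on chromosome 11, were among the higher ones, and none was called after centring.

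Signalling genes of the Wnt pathway gave 10 higher and 6 lower of 18 tested (median 0.50), and 6 higher and 6 lower of 14 without chromosome 11. Wnt8a and Sfrp5 passed the filter through 1 group alone, and 9 of the other 16 were higher and 5 lower. Axin2, a feedback target, stood at 18.7 and 21.1 TPM in WT and 49.2 and 46.5 TPM in Pcgf2 KO (log2 fold change 1.23 ± 0.14 (SE), adjusted p = 2.5e-05). Tcf7, a transcription factor of the pathway, stood at 46.1 and 46.9 TPM in WT and 127 and 120.1 TPM in Pcgf2 KO (log2 fold change 1.39 ± 0.09 (SE), adjusted p = 6.5e-07). Both lie on chromosome 11, and both stayed higher when it was centred (0.69 and 0.85 on the log2 scale). Lef1, a related factor on chromosome 3, stood at 18.9 and 19.7 TPM in WT and 44.5 and 33.8 TPM in Pcgf2 KO (log2 fold change 0.97 ± 0.18 (SE), adjusted p = 0.00096). Of the ligands, Wnt8a and Wnt3 rose (log2 fold changes 1.96 and 1.07; Wnt3 lies on chromosome 11, 0.53 when centred), and Wnt2 and Wnt11 fell (-1.63 and -1.65). The feedback inhibitor Nkd1 moved opposite to Axin2, from 56.8 and 54.7 TPM to 27.1 and 27.2 TPM (log2 fold change -1.01 ± 0.09 (SE), adjusted p = 5.9e-06). BMP and TGF-beta genes gave 10 lower and 4 higher of 20 tested (median -0.29). Bmp4, the ligand that patterns ventral mesoderm, stood at 135 and 139 TPM in WT and 97.5 and 90.3 TPM in Pcgf2 KO (log2 fold change -0.54 ± 0.12 (SE), adjusted p = 0.0036). Id2, a target gene of the pathway, stood at 172 and 173 TPM in WT and 48.8 and 52.8 TPM in Pcgf2 KO (log2 fold change -1.75 ± 0.09 (SE), adjusted p = 1.4e-07). The higher members were Nodal, Lefty1, Lefty2 and Bmp7. Retinoic acid genes gave 3 higher and 3 lower of 15 tested (median 0.04).

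Among Polycomb genes themselves, 10 of 29 PRC1 genes were higher and 3 lower (median 0.17; 5 lower with median-of-ratios scaling), while without chromosome 11 7 of 24 were higher and 3 lower (median -0.02). Bmi1, the alternative to Pcgf2 in canonical PRC1, stood at 13.2 and 10.9 TPM in WT and 14.1 and 14.1 TPM in Pcgf2 KO and did not pass the test (log2 fold change 0.21 ± 0.15 (SE), adjusted p = 0.28). Phc1, the main Phc protein of ESC, stood at 68.5 and 71.7 TPM in WT and 165 and 154 TPM in Pcgf2 KO (log2 fold change 1.17 ± 0.12 (SE), adjusted p = 1e-05). Cbx7, the main Cbx protein of ESC, stood at 37.1 and 37.98 TPM in WT and 61.7 and 63.2 TPM in Pcgf2 KO (log2 fold change 0.72 ± 0.12 (SE), adjusted p = 0.00048). The catalytic subunit Rnf2 stood at 69.2 and 88.1 TPM in WT and 73.7 and 61.2 TPM in Pcgf2 KO with overlapping groups (adjusted p = 0.27). Of 12 PRC2 genes 5 were higher and 2 lower (median 0.24), and without KO library 1, 3 were higher. Jarid2, which recruits PRC2, stood at 41.7 and 43.7 TPM in WT and 77.0 and 64.7 TPM in Pcgf2 KO (log2 fold change 0.71 ± 0.10 (SE), adjusted p = 0.00018). The catalytic subunit Ezh2 stood at 208 and 226 TPM in WT and 217 and 193 TPM in Pcgf2 KO with overlapping groups (adjusted p = 0.52). Cbx2, Dcaf7, Suz12 and Epop lie on chromosome 11 and were called higher before but not after centring, where Suz12 had an adjusted p of 0.059. Ezh1, the other catalytic PRC2 subunit, lies there too and remained higher (0.36 when centred). Ctcf, the loop anchor protein, stood at 82.1 and 84.2 TPM in WT and 84.6 and 79.1 TPM in Pcgf2 KO (log2 fold change -0.02, adjusted p = 0.86). Of 14 genes of CTCF and cohesin 2 were higher and 0 lower (2 and 3 with median-of-ratios scaling). Ctcfl, a germline relative of Ctcf, passed the filter through KO alone, and 1 of the other 13 was higher. Ctcfl stood at 0.079 and 0.147 TPM in WT and 1.27 and 1.05 TPM in Pcgf2 KO (log2 fold change 0.95 ± 0.14 (SE), adjusted p = 0.00022). The higher call among the others was the cohesin acetyltransferase gene Esco2 (log2 fold change 0.52, adjusted p = 0.019).

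Germline genes, several of which are silenced by DNA methylation and by variant PRC1, gave 6 higher and 0 lower of 12 tested (median 0.53). Dazl, Hormad1 and Piwil2 passed the filter through KO alone, and 3 of the other 9 were higher. Without KO library 1, as without KO library 2, 3 of 9 were higher. Tex19.1, a placental and germline gene on chromosome 11, stood at 4.73 and 4.31 TPM in WT and 33.5 and 32.0 TPM in Pcgf2 KO (log2 fold change 2.61 ± 0.16 (SE), adjusted p = 3.4e-07; 2.08 when centred). Dnmt3l, the cofactor of de novo methylation, stood at 18.6 and 18.4 TPM in WT and 76.7 and 76.3 TPM in Pcgf2 KO (log2 fold change 1.99 ± 0.09 (SE), adjusted p = 5.3e-08). Dazl, which defines germ cells, stood at 0.265 and 0.731 TPM in WT and 3.49 and 2.31 TPM in Pcgf2 KO (log2 fold change 1.38 ± 0.20 (SE), adjusted p = 0.00021), while Ddx4, the other defining gene, stood at 2.57 and 3.02 TPM in WT and 3.32 and 3.05 TPM in Pcgf2 KO and did not pass the test (adjusted p = 0.38). Of 14 genes of the 2-cell-like state, 3 members of the Zscan4 family passed the filter, each through KO alone, so their direction was fixed by the filter and no count is given. Zscan4f was the most abundant of them, at 0.741 and 0.509 TPM in WT and 6.04 and 4.50 TPM in Pcgf2 KO, and reads of its near-identical copies may be split among them.

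Several of the largest rises were of genes on the sex chromosomes. Of the 565 tested X-linked genes 15.2% were higher and 24.8% lower (median -0.07), against 23% and 20.3% of all genes. Of 10 tested Y-linked genes 5 were higher and 0 lower. Uba1y and 1 of the 4 listed members below passed the filter through KO alone, which fixed their direction. Such members were not counted apart over the 10. Xlr3b, an X-linked gene of a repeated family, stood at 0.56 and 0.675 TPM in WT and 23.2 and 20.6 TPM in Pcgf2 KO (log2 fold change 3.82 ± 0.16 (SE), adjusted p = 2.1e-08). Its copy Xlr3a rose by 3.50 and may share its reads. The X-linked genes Nxf3, of an RNA export family, and Dmrtc1c2 rose by 3.46 and 2.95. Uba1y on the Y chromosome stood at 0.48 and 0.188 TPM in WT and 11.8 and 10.4 TPM in Pcgf2 KO (log2 fold change 3.19 ± 0.12 (SE), adjusted p = 1.1e-08). Both WT libraries were near 0 for Uba1y, while their Eif2s3y did not differ from KO past the test. Of 4 listed Y-linked genes Kdm5d and Uty were higher (log2 fold changes 0.52 and 0.39) and Ddx3y and Eif2s3y did not pass the test. Of these, 1 higher member passed the filter through KO alone, and 1 of the other 3 was higher. With the replicate block 1 of the 4 was higher. Leaving out 1 library at a time lost both calls in some settings, with list medians of 0.325 to 0.48 against 0.397 as reported. Hormad2, a gene of meiotic chromosome pairing on chromosome 11, stood at 0.235 and 0.29 TPM in WT and 8.84 and 11.1 TPM in Pcgf2 KO (log2 fold change 3.11 ± 0.20 (SE), adjusted p = 6.2e-07; 2.57 when centred). Tuba3a, a tubulin of testis, stood at 1.66 and 1.32 TPM in WT and 17.96 and 21.8 TPM in Pcgf2 KO (log2 fold change 3.06 ± 0.13 (SE), adjusted p = 2.8e-08). Gstp2, a glutathione transferase gene with a close copy in Gstp1, stood at 2.44 and 3.21 TPM in WT and 29.6 and 28.4 TPM in Pcgf2 KO (log2 fold change 2.98 ± 0.16 (SE), adjusted p = 1.6e-07). The 15 largest rises and falls were named only where the groups did not overlap, so that separation was fixed by the rule. Xlr3b, Fam25c, Uba1y, Hormad2 and Dmrtc1c2 stood at under 1 TPM in both WT libraries and passed the filter through KO alone. Fam25c and the zinc finger gene Zfp981 rose by 3.52 and 2.91, and Zic1, Tdgf1-ps1, Otx2 and Tdgf1, given above, completed the 15 largest rises. Upp1, a uridine phosphorylase gene on chromosome 11, stood at 21.3 and 20.9 TPM in WT and 195 and 203 TPM in Pcgf2 KO (log2 fold change 3.18 ± 0.13 (SE), adjusted p = 2e-08; 2.64 when centred). Of the 15 largest falls, Tac2, which encodes a tachykinin peptide, and the pseudogene Hbb-bh0 were in none of the lists. Tac2 stood at 25.1 and 21.2 TPM in WT and 0.592 and 0.619 TPM in Pcgf2 KO (log2 fold change -3.91 ± 0.31 (SE), adjusted p = 1.9e-06), and, like Lum, passed the filter through WT alone.

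The lists of hypoxia and stress, ribosomal protein and mitochondrial genome genes had medians between -0.50 and 0.20. Of 18 hypoxia and stress genes 6 were higher and 5 lower (median 0.13), with 3 lower without WT library 2 or without KO library 2. Slc2a1, the glucose transporter, stood at 1074 and 1021 TPM in WT and 516 and 496 TPM in Pcgf2 KO (log2 fold change -1.05 ± 0.09 (SE), adjusted p = 5.1e-06). Vegfa, the endothelial growth factor, stood at 170 and 162 TPM in WT and 102 and 97.8 TPM in Pcgf2 KO (log2 fold change -0.73 ± 0.15 (SE), adjusted p = 0.0024). The glycolytic gene Ldha stood at 1397 and 1335 TPM in WT and 1388 and 1551 TPM in Pcgf2 KO with overlapping groups (adjusted p = 0.62). Of 84 ribosomal protein genes 27 were higher and 0 lower (median 0.20), and 20 of 77 without chromosome 11. The higher calls numbered 10 with median-of-ratios scaling, a share below that of all genes there, 14 with the 4 EB day 8 libraries alone, 13 without WT library 2 and 15 without KO library 2. Their share of all TPM was 14.1% and 12.5% in WT and 14.8% and 16.8% in KO. Of 13 genes of the mitochondrial genome 9 were lower and 0 higher (median -0.50), but 5 without WT library 2 (median -0.34) and 6 without KO library 2, with shares of 7.67% and 9.59% in WT and 7.61% and 6.49% in KO. The share in WT library 1 lay just above that in KO library 1, so the groups were barely apart. These shares move with the summed level of all other genes, and their part in the results was not tested.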

How the data were processed

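RNA of WT and Pcgf2 KO cells was analysed from a table of TPM in 16 libraries, in which 0 columns of per-sample values went unused. The deposited TPM were made by the authors. The submitters' processing notes name kallisto and mm10. They also list STAR, BWA, SAMtools, MACS2 and deepTools among others, with neither roles nor versions. Not given in the sources used here: annotation release and gene summing.

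The log2 of TPM + 1 was tested for each gene that reached 1 TPM in at least 2 of the 4 EB day 8 libraries. The test was limma 3.58.1 under R 4.3.3, two-sided, with trended eBayes moderation, 1 mean for each of the 8 groups and a spread shared over all 16 libraries (8 residual degrees of freedom). P-values were adjusted by Benjamini-Hochberg over all 15244 genes, and a gene was called at an adjusted p under 0.05. The fit was tested on simulated data in which few genes changed and no chromosome was shifted. That setting differed from the data here, so it does not check the calls reported. TPM keep no depth, so counting error was not computed.

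The genes, lists and tests were chosen with earlier results of these data known. Named genes were a set of key genes, members of the lists, and the 15 largest rises and 15 largest falls among called genes that averaged 5 TPM or more in a group and whose groups did not overlap. Predicted genes (192 of the 5284 genes past that rule) were counted and not named. Lists were described by counts and medians. Gene positions are from RefSeq GRCm38.p6, the build called mm10, matched by symbol for 30032 of 35245 genes. Alternatives changed the pseudocount, filter, scaling, libraries and model. Leaving out or centring chromosome 11 was chosen after seeing the data. A second table of TPM without EB day 8 libraries was not used. A few genes of the lists are not reported here by name.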

Additional observations from a re-analysis of the deposited data

Results flagged for a closer look

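The KO effect (log2 fold change, Pcgf2 KO minus WT) differed between stages, by limma contrasts with Benjamini-Hochberg adjustment, for 6586 genes between EB day 8 and EB day 3 and for 8634 genes between EB day 8 and NPC. The WT libraries of EB day 8 differ from the other WT libraries in Eif2s3y, so a difference between stages cannot be told apart from a difference between the WT cells used.

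Against EB day 3, the effect on day 8 was more negative for Postn by -5.94, Hbb-bh1 by -4.56, Igf2 by -3.92, Apob by -3.89, Afp by -3.16, Gata1 by -3.01, Hand1 by -2.25, Hnf4a by -2.08, Col1a1 by -1.66 and Gata4 by -0.64 (adjusted p from 3.6e-08 for Postn to 0.022 for Gata4). It was more negative for Klf2 by -1.23, Cdkn2a by -0.97, Hoxd13 by -0.72, Bmi1 by -0.65 and the Y-linked Eif2s3y by -3.71 as well. It was more positive for Pou5f1 by 2.06 (adjusted p = 1.4e-05) and for Pcgf2 by 0.6, the latter close to the threshold (adjusted p = 0.05). On EB day 3 the KO effect was 0 for Postn, 0.064 for Hbb-bh1 and 0.047 for Afp. For these genes the difference largely restated the fold change of day 8.

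Against NPC, the effect on day 8 was more negative for Pou5f1 by -5.57, Hand1 by -4.98, Postn by -4.54, Eif2s3y by -4.08, Krt8 by -3.5, Afp by -3.45, Klf2 by -3.05, Apob by -2.59, Gata1 by -1.31 and Cdkn2a by -0.64 (adjusted p from 1.7e-09 for Pou5f1 to 0.014 for Cdkn2a). It was more positive for Pax6 by 5.34, Hbb-bh1 by 3.13, Myl7 by 1.82, Tubb3 by 1.72, Gata4 by 1.54, Col1a1 by 1.42, Hoxa9 by 1.29 and Pcgf2 by 0.96. For Hbb-bh1 the fall was -7.63 in NPC and -4.50 on day 8. Afp stood at under 1 TPM in every NPC library, so its difference largely restated the fold change of day 8.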

How the results depend on the processing

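With median-of-ratios scaling the genes with a more positive KO effect on day 8 than on day 3 numbered 2807, against 4605 as reported. As reported, the median KO effect over genes off chromosome 11 was -0.20 on EB day 3 and -0.01 on EB day 8. The part of this offset in the split was not tested. Leaving out 1 library at a time gave 2253 to 2960 higher and 2069 to 2611 lower calls on day 8, and 2253 without KO replicate 1. The cause was not tested. Over the other settings run, the count of calls on day 8 stayed between 5273 (genes with at least 5 TPM) and 7383 (quantile normalization). The median of these lists changed sign in at least 1 setting: blood and macrophage, cardiac muscle, Cdk inhibitors, cell division, CTCF and cohesin, epithelium, Hox groups 1 to 4, Irx loci, neural crest, neuron, Polycomb-target factors, PRC1 subunits and retinoic acid. No key gene reversed. Hoxa9 missed the threshold without KO replicate 1, and Pax6 passed it without WT replicate 1.

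Same-numbered libraries did not deviate together on day 8 (correlation of deviations -0.076 across genes, 2 pairs), so the numbers are not taken to pair them. With the replicate block 5549 genes were called, 2996 higher and 2553 lower. Differences between stages with the block numbered 5314 against day 3 and 7747 against NPC.

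Depth is unknown in TPM, and each group held 2 libraries.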

Other observations

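Genes that ranked just below the 15 largest rises and falls, and that belong to none of the lists, were picked after their values were seen. Among the rises, Trh, the precursor of thyrotropin-releasing hormone, stood at 62.5 and 48.4 TPM in WT and 309 and 309.6 TPM in Pcgf2 KO. Sohlh2, a germ cell factor, stood at 1.07 and 0.714 TPM in WT and 9.67 and 9.48 TPM in Pcgf2 KO, and Morc1, which acts in transposon silencing in the male germline, stood at 1.85 and 1.46 TPM in WT and 14.1 and 11.3 TPM in Pcgf2 KO. Only called genes whose groups did not overlap were ranked, so the separation of the libraries was fixed by that rule. Aire, known for self-antigen expression in thymus, stood at 3.45 and 3.63 TPM in WT and 25.2 and 22.9 TPM in Pcgf2 KO, and Inpp5d, a phosphatase gene, at 4.33 and 4.81 TPM in WT and 31.1 and 27.6 TPM in Pcgf2 KO.

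Among the falls, Hsd11b2, which inactivates glucocorticoids, stood at 117 and 113 TPM in WT and 9.52 and 10.3 TPM in Pcgf2 KO. Fgfr3, a fibroblast growth factor receptor, stood at 40.9 and 37.7 TPM in WT and 3.75 and 3.35 TPM in Pcgf2 KO. Kel, a blood group protein of the red cell membrane, stood at 15.6 and 13.2 TPM in WT and 0.89 and 1.15 TPM in Pcgf2 KO, and Cd248, a surface protein of mesenchyme and pericytes, stood at 28.5 and 29.3 TPM in WT and 3.06 and 2.47 TPM in Pcgf2 KO. As for the rises, only called genes whose groups did not overlap were ranked. Tdo2, an enzyme of tryptophan breakdown, stood at 31.6 and 33.5 TPM in WT and 2.77 and 3.13 TPM in Pcgf2 KO, and Smoc2, a matrix protein, stood at 14.1 and 13.4 TPM in WT and 0.606 and 0.0199 TPM in Pcgf2 KO. Smoc2 passed the filter through WT alone.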
